A study of Mus musculus with 160 samples.

Results

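The Kruppel-like factors are zinc finger transcription factors, and the 10 followed here are *Klf2*, *Klf3*, *Klf4*, *Klf5*, *Klf6*, *Klf7*, *Klf9*, *Klf10*, *Klf11* and *Klf13*, chosen by name from the 46078 genes of the count table and all found there by their Ensembl identifiers. RNA had been sequenced by Smart-seq2, a full-length method for very small inputs, from pools of 20 cells each. The cells were sorted from the AGM (aorta-gonad-mesonephros), the embryonic region in which the first haematopoietic stem cells arise, of mouse embryos heterozygous for a Gata3-GFP allele. That allele (Gata3-GFP +/-) is a knock-in reporter carried by every pool of every population, so each comparison lies between cells that report the gene (GFP+) and cells of the same gate that do not (GFP-). At E10.5 the gates were endothelial cells (EC, VE-Cadherin+ without CD41 or CD45) and haematopoietic cells (HC, CD41 or CD45 positive). At E11.5 they were mesenchymal cells (MC, Pdgfrb+) and cells of the sympathetic nervous system (SNS, p75+, the product of *Ngfr*). After quality limits 153 of 160 pools were used: 19 GFP+ EC, 20 GFP- EC, 20 GFP+ HC, 20 GFP- HC, 20 GFP+ MC, 17 GFP- MC, 18 GFP+ SNS and 19 GFP- SNS, with 1400824 to 16004756 counts on genes per pool. The E10.5 cells came from 3 to 5 biological replicates, which were sorted into tubes by population and then sorted again into the pools, while the number behind the E11.5 pools is not given in the sources used here. Pools of a population therefore share embryos and the labels do not tie a pool to a replicate. The p-values below take pools as replicates, so they measure the spread between pools, part of which may be technical, and not that between embryos. In such pools, fewer expressing cells and less RNA per cell cannot be told apart.

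Kruppel-like factors bind GC-rich and CACCC sequences through a shared zinc finger domain at the end of the protein and differ mainly in the part that recruits partners. *Klf2* and *Klf4* are induced in endothelium by blood flow, through a kinase cascade that ends on the Mef2 factors, and they drive genes of quiescent, flow-exposed endothelium. *Klf6* and *Klf7* are related activators, the first inducible by stress and injury and the second known from neurons. *Klf3* is a repressor that recruits the corepressor CtBP, and *Klf9*, *Klf10*, *Klf11* and *Klf13* recruit the Sin3 corepressor. *Klf5* acts mainly in epithelia and smooth muscle.

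Promoter stretches of *Klf2*, *Klf4* and *Klf6* are shown, the flow-induced pair and the 1 member called higher in HC than in EC; those of the other members are described by their letters alone. They are RefSeq sequence of build GRCm38.p6, from 250 to 31 bases before the RefSeq start, in the gene's direction. That start differs from the ends of the gene spans given below, which are those of GENCODE. Capitals mark 2 sets of letters on either strand. These are CTA and TAG with 4 bases of any kind between them (a Mef2 site in general form) and GGGCGG (a GC box). Of the 10 members 8 had such an entry, and *Klf5* and *Klf10* did not.
Klf2, chr8:72318812-72319031, plus strand: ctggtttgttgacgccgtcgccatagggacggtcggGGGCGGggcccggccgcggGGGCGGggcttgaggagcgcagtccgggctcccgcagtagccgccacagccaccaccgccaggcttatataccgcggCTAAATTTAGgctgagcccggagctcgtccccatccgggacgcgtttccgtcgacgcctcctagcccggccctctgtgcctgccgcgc
Klf4, chr4:55532506-55532725, minus strand: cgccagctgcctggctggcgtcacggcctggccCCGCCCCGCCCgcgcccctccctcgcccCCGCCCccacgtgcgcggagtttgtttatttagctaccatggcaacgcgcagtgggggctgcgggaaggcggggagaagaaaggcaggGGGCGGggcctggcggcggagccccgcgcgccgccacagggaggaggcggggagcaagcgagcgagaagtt
Klf6, chr13:5861239-5861458, plus strand: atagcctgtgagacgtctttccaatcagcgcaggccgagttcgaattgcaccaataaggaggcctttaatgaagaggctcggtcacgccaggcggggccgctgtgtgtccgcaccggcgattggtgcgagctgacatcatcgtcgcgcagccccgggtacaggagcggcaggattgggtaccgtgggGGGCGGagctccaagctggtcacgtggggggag
The Mef2 letters stood in the *Klf2* stretch and in none of the other 7 members searched, against 2.83% of 32851 mouse promoter stretches of the same length. GC boxes (GGGCGG on either strand) were found in 7 of the 8 members, 6 of them in *Klf3* and 4 in *Klf4*, against 28.5% of promoters. The shorter letters CACCC, which can overlap a GC box, were found in 3 of the 8 (*Klf3*, *Klf7* and *Klf9*) against 47.8% of promoters, TGACG (the core of a cAMP response element) in 4 against 14.8%, TGANTCA (AP-1) in *Klf9* alone against 6.12%, and AGATAA (read by GATA factors) in 0 of the 8 against 9.04%. A match is a description of letters and not a bound site.

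*Klf2* spans chr8:72319033-72321656, *Klf3* chr5:64803388-64832901, *Klf4* chr4:55527143-55532466 and *Klf5* chr14:99298691-99315036 in GRCm38. *Klf6* spans chr13:5861482-5870394, *Klf7* chr1:64029447-64122282 and *Klf9* chr19:23141226-23168134. *Klf10* spans chr15:38291463-38300706, *Klf11* chr12:24651274-24662789 and *Klf13* chr7:63886351-63938915. All 10 are protein coding, and counts were taken over their exons. Whether strand was used in counting is not given in the sources used here. Of the *Klf7* exon bases, 39.4% overlap *Gm13748* and *Gm26649* on the opposite strand, so that reads of these genes cannot be told apart and *Klf7* values are uncertain to that extent. For *Klf3* the overlap is 3.59%, and no other member overlaps an annotated exon.

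The sorting genes were checked in every pool against the labels. Levels are given as CPM, a gene's counts scaled to the pool's total on genes and adjusted by scaling factors (TMM) over the 8 populations. *Gata3* itself was at 28.5 to 174 CPM in GFP+ EC against 4.37 to 29.6 in GFP- EC. In GFP+ HC it was at 12.7 to 149 against 1.78 to 12.9 in GFP- HC. *Cdh5*, which encodes VE-Cadherin, was at 265 to 1733 CPM in EC pools and at most 30.03 in HC pools, and *Ptprc*, which encodes CD45, reached 25.9 CPM in EC. *Ptprc* was at 298 to 643 CPM in GFP- HC but at 4.65 to 356 in GFP+ HC, so that the lowest GFP+ HC pools lay within the EC range. *Itga2b*, which encodes CD41, was at 9.48 to 1410 CPM in GFP+ HC and at 0.596 to 136 in GFP- HC, against at most 14.6 in EC. In 12 E11.5 pools, 3 of each population, *Pdgfrb* and *Ngfr* stood the wrong way round. The 3 pools labelled GFP+ MC had 290 to 323 CPM of *Ngfr* and 1.09 to 12.4 of *Pdgfrb*, and the 3 labelled GFP- MC had 0.952 to 1.89 CPM of *Pdgfrb* with 1513 to 3886 of summed sympathetic markers. The 3 pools labelled GFP+ SNS had 116 to 131 CPM of *Pdgfrb* against 0.904 to 7.21 of *Ngfr*, and the 3 labelled GFP- SNS 136 to 249 against 4.23 to 7.73. In the 3 pools labelled GFP- MC *Ngfr* was at 28.9 to 111 CPM, lower than in the 3 labelled GFP+ MC. Without the 12 pools, *Ngfr* was at 45.9 to 153 CPM in GFP+ SNS and at 188 to 339 in GFP- SNS. Whether the GFP sign in the label of the 12 pools holds was not tested. No pool was moved to another group. Each member's test at E11.5 was run with all pools and without these 12, a choice made after seeing the data, and values are those of all pools unless stated. Without them *Gata3* was at 19.7 to 70.4 CPM in GFP+ MC against 2.52 to 19.02 in GFP- MC, and at 111 to 306 in GFP+ SNS against 11.2 to 93.9 in GFP- SNS.

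**Figure D1:**
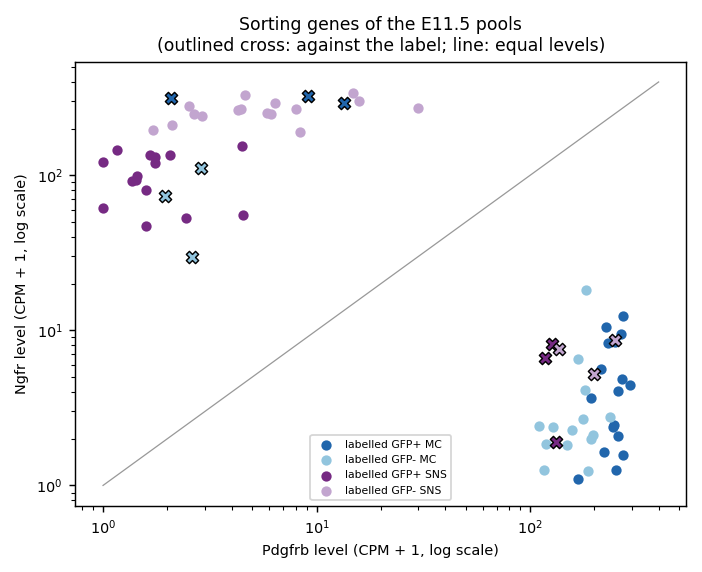
Level of *Ngfr* against level of *Pdgfrb* (CPM + 1, both axes logarithmic) in the E11.5 pools, 1 point a pool, coloured by label; the line marks equal levels. The 12 outlined crosses are the pools that lie on the side of the line opposite to their label.

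At E10.5 the GFP+ pools also carried RNA of genes listed as markers of other cell types. Summed mesenchymal markers were at 25.9 to 1559 CPM in GFP+ EC and 3.87 to 72.0 in GFP- EC, with 7 of 7 tested markers higher, and sympathetic markers at 283 to 743 against 15.4 to 146, with 2 of 3 tested markers higher. Nephric duct and epithelial markers summed to 42.4 to 135 CPM in GFP+ EC and 0.349 to 12.7 in GFP- EC (3 of 4 tested higher, *Cdh16* at 0 in GFP+ EC). Of the other lists tested between the EC populations, 3 of 6 haematopoietic and 2 of 3 erythroid markers were higher, and 0 of 10 macrophage, 0 of 3 granulocyte, 0 of 4 megakaryocyte and 0 of 1 Schwann precursor markers differed. No germ cell marker was abundant enough to test in EC. Their part in the results was not tested beyond leaving out the richest pools.

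Among the 10 members, levels were compared per kilobase of exon. *Klf6* and *Klf13* ranked among the first 3 members in every population and *Klf5* and *Klf9* last. *Klf2* ranked first in both EC populations, at 68.1 CPM per kb in GFP+ EC and 37.0 in GFP- EC. *Klf6* ranked first in each of the other 6 populations, from 18.3 CPM per kb in GFP+ SNS to 75.8 in GFP- HC. *Klf2* came second in HC and between the 3rd and 8th place in the E11.5 populations. *Klf5* and *Klf9* stayed at a mean of 4.42 CPM or less in every population (4.96 without the 12 pools), and only 42 and 48 of the 153 pools held at least 10 counts of them.

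Across the 8 populations *Klf2* had the widest range of the well-detected members, from a mean of 126 ± 47.3 CPM (SD, n = 19) in GFP+ EC down to 5.37 ± 5.44 (n = 18) in GFP+ SNS, a ratio of 23.4. The order of the means ran from GFP+ EC through GFP- EC (68.3 ± 23.1, n = 20), GFP- HC (65.4 ± 28.5, n = 20) and GFP+ HC (38.7 ± 31.5, n = 20) to the E11.5 cells, where GFP+ MC (15.4 ± 8.88, n = 20) came before GFP- MC (8.16 ± 7.69, n = 17), GFP- SNS (5.46 ± 8.55, n = 19) and GFP+ SNS. When the 12 pools were left out, GFP- SNS was the lowest, at 3.06 ± 3.93 CPM (n = 16), and the ratio was 41.1. *Klf3* was highest in GFP+ EC (194 ± 61.5 CPM) and lay between 35.4 and 79.7 CPM in the other 7 populations. *Klf13* was likewise highest in GFP+ EC (183 ± 37.6 CPM) and lay between 70.7 and 112 elsewhere. *Klf4* was highest in GFP+ EC at 26.46 ± 11.53 CPM and lowest in GFP+ HC at 4.18 ± 4.86. *Klf6* peaked in GFP- HC at 333 ± 94.5 CPM, and its other means lay between 80.5 and 158. *Klf7* ranged from 81.6 CPM in GFP+ EC to 29.5 in GFP- HC, *Klf10* from 44.3 in GFP- EC to 9.63 in GFP- SNS, and *Klf11* from 33.3 in GFP+ MC to 6.30 in GFP- EC. The lowest mean of *Klf7* without the 12 pools was that of GFP- SNS at 27.8 CPM.

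Of the 70 pairs of neighbours in these orders, 4 differed beyond the spread of the pools (two-sided permutation tests of log2(CPM + 1), adjusted p under 0.01 over the 70). These were GFP+ over GFP- EC for *Klf2* (adjusted permutation p = 0.00648), *Klf3* and *Klf13*, and GFP- over GFP+ HC for *Klf6*, the last 3 each with an adjusted permutation p of 0.000233, the smallest the resamples can give. The other pairs missed this threshold, which does not show that they are equal. Without the 12 pools 10 pairs differed, among them GFP+ over GFP- MC for *Klf2* and *Klf11* and GFP- over GFP+ SNS for *Klf3*. GFP- over GFP+ HC for *Klf2* (log2 difference 1.05) was also among the 10. It held the same pools in both runs, and only the resampling and the adjustment differed (adjusted permutation p = 0.0127 with all pools, 0.0063 without the 12).

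**Figure D2:**
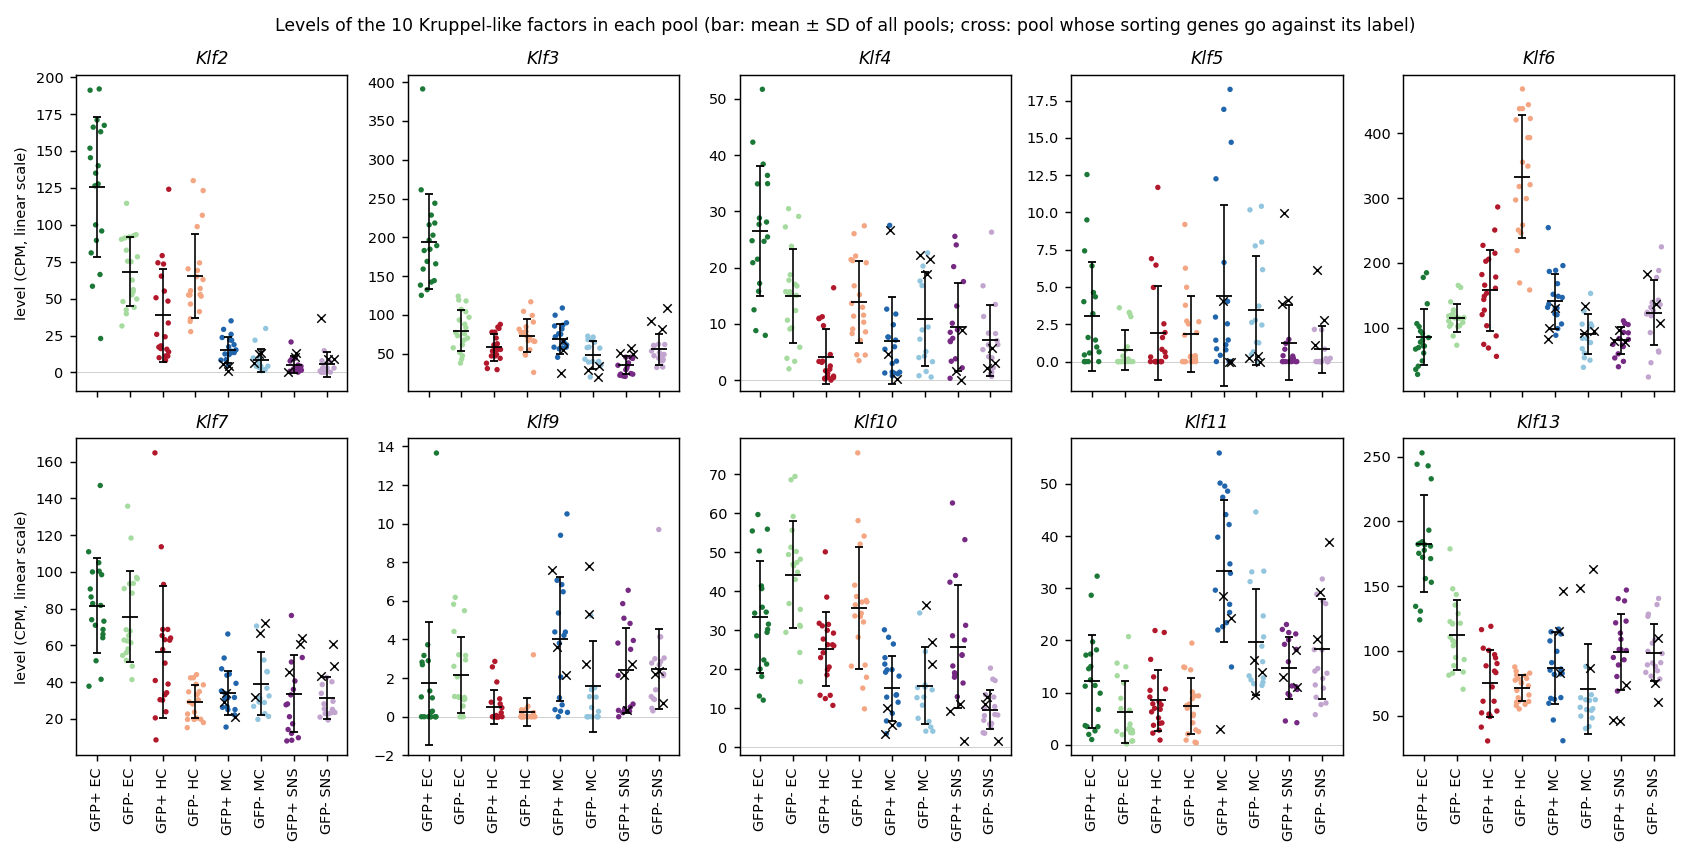
Level of each of the 10 members (CPM, linear axes that differ between panels) in every pool of the 8 populations, 1 point a pool, with the mean ± SD as bars and crosses for the 12 E11.5 pools whose sorting genes go against the label. *Klf2*, *Klf3*, *Klf4* and *Klf13* have their highest mean in GFP+ EC, *Klf6* in GFP- HC and *Klf11* in GFP+ MC.

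The comparison of GFP+ with GFP- EC asks what sets the *Gata3*-expressing endothelium apart. *Klf3*, *Klf13* and *Klf2* were higher in GFP+ EC and no member was lower, where a call needs an adjusted p under 0.01 (edgeR, quasi-likelihood, Benjamini-Hochberg over all genes) and a difference of more than 0.1 on the log2 scale. Of the 10 members tested 3 were thus called higher, a share to be read against the 19.5% of 15073 genes called higher, and 0 lower against 16.5%. The median log2 fold change of the members was 0.73 and that of all genes tested 0.10.

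*Klf3*, the CtBP-dependent repressor, had a lowest, median and highest level of 125, 185 and 391 CPM in GFP+ EC and of 37.8, 76.4 and 124 in GFP- EC. Every GFP+ pool lay above every GFP- pool. The share of all genes that separate in this way was not computed, for this or the other comparisons of pools. The log2 fold change was 1.25 ± 0.14 (SE), or 2.38-fold, with an adjusted p of 9.88e-10 in edgeR. *Klf13*, a Sin3-binding repressor, was at 124, 181 and 253 CPM in GFP+ EC and at 70.3, 109 and 179 in GFP- EC. The groups overlapped, with 10 of 19 GFP+ pools above every GFP- pool, and the log2 fold change was 0.67 ± 0.10 (edgeR adjusted p = 4.47e-07). *Klf2*, the flow-induced factor, was at 23.0, 135 and 192 CPM in GFP+ EC and at 31.5, 68.8 and 115 in GFP- EC. The lowest GFP+ pool lay below all GFP- pools while 12 of 19 lay above all of them, and the log2 fold change was 0.85 ± 0.18 (edgeR adjusted p = 0.000147).

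*Klf4*, which shares many functions with *Klf2*, was at 7.96, 25.5 and 51.7 CPM in GFP+ EC and at 2.01, 15.5 and 30.5 in GFP- EC. Its log2 difference of 0.78 ± 0.26 missed the threshold (edgeR adjusted p = 0.0110) and passed it under 4 alternatives. One of these leaves out the GFP+ EC pool with over 1000 CPM of mesenchymal markers, after which 4 members were higher, against 18.5% of genes. *Klf6* had a log2 difference of -0.47 ± 0.16 (edgeR adjusted p = 0.0167) and *Klf10*, a TGF-beta inducible repressor, one of -0.44 ± 0.18 (edgeR adjusted p = 0.0406). The remaining 4 members gave log2 differences from -0.34 (*Klf9*) to 1.89 (*Klf5*) with edgeR adjusted p-values from 0.0340 to 0.694. Scaling to the ERCC spike-ins moved the median of all genes by -0.70 on the log2 scale. Under it *Klf3* alone was called higher, *Klf2* was at 0.34 (edgeR adjusted p = 0.217), *Klf13* at -0.01 (edgeR adjusted p = 0.952), and *Klf6* (-1.16) and *Klf10* (-1.24) were called lower. Of the 15073 genes 951 were called higher and 5685 lower with this scaling. The test of scran-normalised log values in scanpy, the study's own tool, called the same 3 members higher and *Klf6* lower (-0.65, adjusted p = 0.00337). *Klf2* also lost its call in 1 fit of all 8 populations (0.88, edgeR adjusted p = 0.0315).

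The flow pathway upstream of *Klf2* and *Klf4* was fixed as a list of 14 genes, which holds activating and restraining genes alike. Of these 7 were higher and 2 lower in GFP+ EC, with a median log2 difference of 0.46 against 0.10 for all genes. The count and the median therefore give no direction of the pathway's activity. *Heg1*, a junctional receptor of the cerebral cavernous malformation complex, rose by 1.66 on the log2 scale, *Pecam1*, a junctional flow sensor, by 0.90, *Krit1*, a partner of *Heg1* that restrains the cascade, by 0.72, and *Mef2d* by 0.67. *Mef2c* (-0.66) and *Mef2a* (-0.36), both Mef2 factors, were lower. Of 10 tested endothelial genes known to respond to *Klf2* or *Klf4*, 6 were higher and 0 lower, with a median of 0.53. They included *Vcam1* (4.02), an adhesion molecule that these factors are known to restrain, *Edn1* (3.38), the endothelin precursor, which *Klf2* also restrains, *Nos3* (1.68), the endothelial nitric oxide synthase, and *S1pr1* (0.68), a sphingosine phosphate receptor. *Vcam1* is also expressed by mesenchyme, and the endothelial markers moved as well, with 7 of 8 higher and *Emcn* lower and sums of 5824 to 7848 CPM in GFP+ EC against 3665 to 5466 in GFP- EC. Whether the share of endothelial RNA in the pools bears on these genes was not tested.

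The lists of partners and relatives stood beside the 19.5% of all genes called higher and 16.5% lower, and nothing particular to them is read from their counts. Of 11 Klf cofactors and ubiquitin ligases, 4 were higher and 1 lower (median 0.19), namely the acetyltransferases *Kat2b* (1.81), *Ep300* (0.96) and *Crebbp*, the ubiquitin ligase *Wwp1* (1.05), which targets several Klf proteins, and the deacetylase *Hdac1*, the lower one. Of 4 other Klf genes tested *Klf12* was higher (1.16), with a list median of 0.13, and of 4 Sp factors, the sister family, *Sp4* (1.27), with a median of 0.27. Among 16 immediate early and dissociation response genes, which cell isolation can induce, 3 were higher and 3 lower (median 0.40), led by *Atf3* (-1.79), *Btg2* (1.73), *Hspa1b* (-1.62) and *Ier3* (1.57). Their summed level was 399 to 816 CPM in GFP+ EC and 315 to 620 in GFP- EC.

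**Figure D3:**
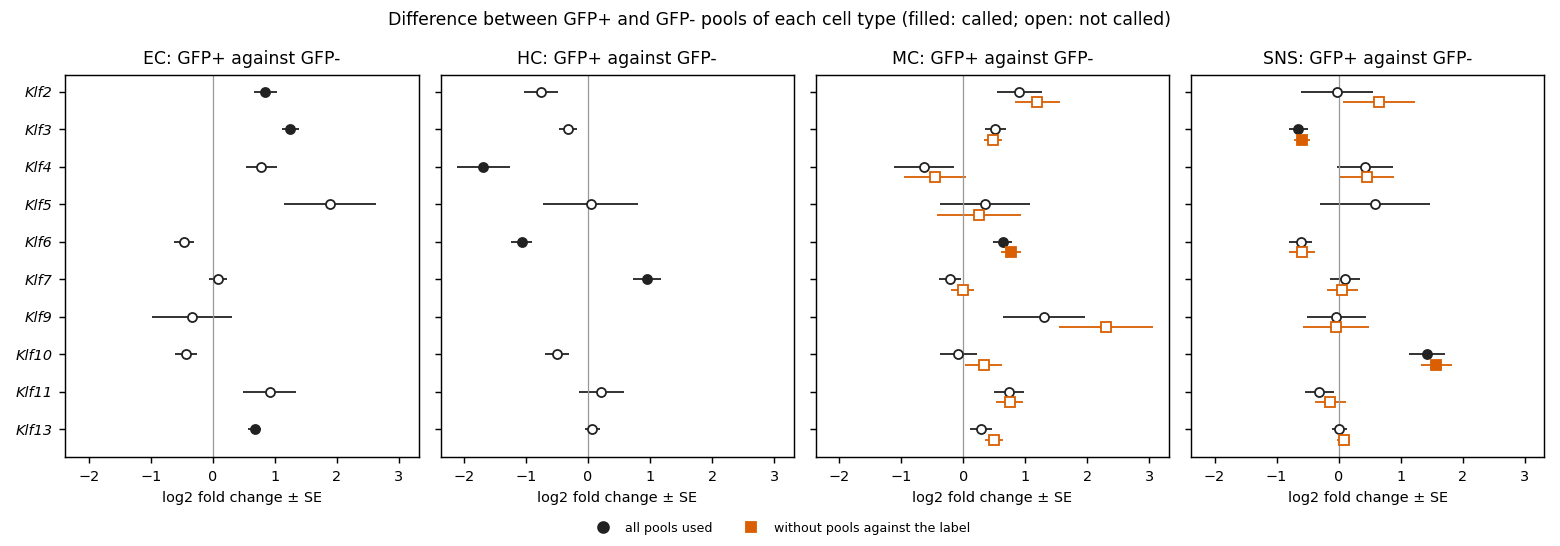
Log2 fold change ± SE of each member between GFP+ and GFP- pools of each cell type, with filled symbols for members past the threshold and squares for the fits without the 12 E11.5 pools against their label. *Klf3* is higher in GFP+ EC (1.25) and lower in GFP+ SNS (-0.65), *Klf6* lower in GFP+ HC (-1.07) and higher in GFP+ MC (0.63).

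In HC the members called were others than in EC, though a threshold passed in 1 cell type only does not show a difference, which is tested further on. *Klf6* and *Klf4* were lower and *Klf7* was higher in GFP+ HC. Of 9 members tested (*Klf9* was too low), 1 was higher, against 17.1% of 16200 genes, and 2 were lower, against 9.53%. Their median log2 difference was -0.32 and that of all genes 0.05.

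*Klf6*, the stress-inducible activator, was at 55.7, 157 and 286 CPM (lowest, median, highest) in GFP+ HC and at 158, 335 and 468 in GFP- HC. Of the GFP- pools 14 of 20 lay above every GFP+ pool. The log2 fold change was -1.07 ± 0.16 with an edgeR adjusted p of 1.66e-06. *Klf4*, which in blood cells accompanies monocyte differentiation, was at 0, 2.23 and 16.4 CPM in GFP+ HC and at 3.46, 12.2 and 27.4 in GFP- HC. It was lower by a log2 fold change of -1.69 ± 0.43 (edgeR adjusted p = 0.00172), and 14 of 20 GFP+ pools lay below every GFP- pool. *Klf7* was at 8.60, 54.1 and 165 CPM in GFP+ HC and at 15.3, 29.8 and 44.1 in GFP- HC. The GFP+ pools spread beyond the GFP- pools on both sides, with 11 of them above all GFP- pools, and the log2 fold change was 0.96 ± 0.22 (edgeR adjusted p = 0.000717).

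The members not called in HC included *Klf2*, at 8.16, 24.98 and 124 CPM in GFP+ HC and at 27.6, 56.1 and 130 in GFP- HC. Its log2 difference was -0.76 ± 0.28 (edgeR adjusted p = 0.0281). *Klf10* gave -0.50 ± 0.19 (edgeR adjusted p = 0.0330) and *Klf3* -0.32 ± 0.14 (edgeR adjusted p = 0.0635). *Klf13* (0.07), *Klf11* (0.21) and *Klf5* (0.04) had edgeR adjusted p-values from 0.679 to 0.974. The scanpy test called *Klf2* (-1.12, adjusted p = 0.00356) and did not call *Klf7* (0.71, adjusted p = 0.0165).

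The blood cells in the 2 HC populations were not of 1 kind. Summed megakaryocyte markers (*Pf4*, *Gp9*, *Gp1bb*, *Itga2b*) were at 1359 to 46305 CPM in GFP+ HC and 133 to 3747 in GFP- HC, with 4 of 4 higher. Of the *Gp1bb* exon bases 92.9% overlap *Gm49601* and *Sept5* on the same strand, and *Itga2b* encodes CD41, on which the HC gate rests. Both limit this list, here and where it is used below. Summed granulocyte markers were at 2.95 to 292 CPM in GFP+ HC and 28.3 to 29170 in GFP- HC, with 6 of 6 tested markers lower. Macrophage markers summed to 239 to 11703 CPM in GFP+ HC and 5384 to 11819 in GFP- HC, and 3 of 10 were lower. Of the general haematopoietic markers 5 of 6 were lower and *Itga2b*, which encodes CD41, was higher. GFP+ HC also held more RNA of genes listed as markers of non-blood cells. Of the mesenchymal markers 8 of 8 were higher (sums of 17.4 to 971 CPM against 3.37 to 175). So were 7 of 7 sympathetic (4.998 to 1880 against 1.71 to 27.8) and 6 of 6 tested nephric duct and epithelial markers (2.63 to 369 against 0.857 to 26.0). The same held for 7 of 8 endothelial (108 to 673 against 31.3 to 182) and 2 of 3 Schwann precursor markers (0 to 141 against 0 to 8.47). Whether blood cells themselves express some of these genes was not tested. Of 6 erythroid markers 1 was lower (*Klf1*), and the 1 germ cell marker tested was not called. Without the 4 GFP+ HC pools richest in sympathetic markers or lowest in *Ptprc*, left out after seeing the data, *Klf7* was at 0.67 ± 0.20 (edgeR adjusted p = 0.00957) and the same 3 members were called, beside 13.3% of genes called higher and 9.29% lower.

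Within GFP+ HC the level of *Klf7* went with that of the megakaryocyte markers over the 20 pools. Pearson's r between log2(CPM + 1) of *Klf7* and the mean log2(CPM + 1) of these markers was 0.72 (adjusted permutation p = 0.006) and Spearman's rho 0.79 (adjusted permutation p = 0.0012). Without the 2 pools farthest from the median of the markers r was 0.71. *Klf2* went with the macrophage markers at r = 0.59 (adjusted permutation p = 0.0196) and rho = 0.69 (adjusted permutation p = 0.0106), which missed the threshold of 0.01. Of 20 relations of this family, those of the 10 members with the 2 marker lists, computed after seeing the data, *Klf7* with megakaryocyte markers was the 1 past the threshold in r and rho. With a pseudocount of 0.1 in place of 1 it missed it.

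**Figure D4:**
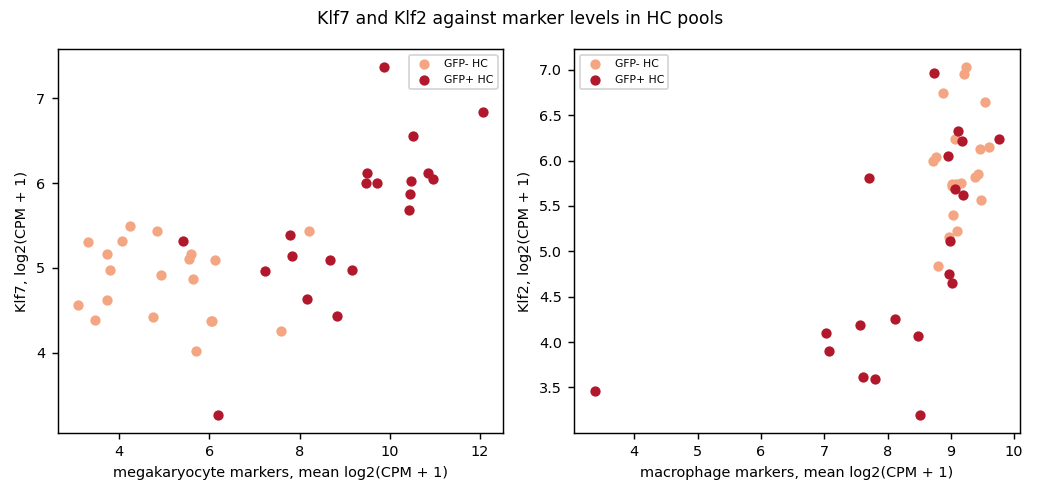
Level of *Klf7* against the mean level of the megakaryocyte markers (left) and of *Klf2* against that of the macrophage markers (right), all as log2(CPM + 1), 1 point a pool, in the 20 GFP+ and 20 GFP- HC pools. Within GFP+ HC r is 0.72 on the left and 0.59 on the right.

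The immediate early genes moved with *Klf6* and *Klf4* between the HC populations. Of 17 tested, 7 were lower in GFP+ HC and 0 higher (median -0.70), led by *Fos* (-1.52), *Hspa1a* (-1.51), *Hspa1b* (-1.43) and *Dusp1* (-1.12). Their summed level was 382 to 1782 CPM in GFP+ HC and 858 to 2444 in GFP- HC. Within populations, 0 of 80 relations of the 10 members with these genes passed the threshold in r and rho together, with r from -0.39 to 0.76. The highest was that of *Klf2* in GFP+ SNS (r = 0.76, adjusted permutation p = 0.0144, and rho = 0.66, adjusted permutation p = 0.168, n = 18), at r = 0.70 without the 2 pools farthest from the median of these genes. With the 12 pools left out it was that of *Klf10* in GFP+ SNS (r = 0.85, adjusted permutation p = 0.0088, and rho = 0.84, adjusted permutation p = 0.0112, n = 15), at r = 0.71 without the 2 farthest, so that its rho alone missed the threshold. Of 180 pairs of members within the E10.5 populations 0 passed it, the highest r being 0.68 for *Klf2* and *Klf4* in GFP+ EC (adjusted permutation p = 0.29).

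The other pathway lists in HC stood beside the 17.1% of all genes called higher and 9.53% lower. Of 14 flow and Mef2 genes 4 were higher, led by *Kdr* (1.99), a vascular growth factor receptor and flow sensor, and *Heg1* (1.17), and 2 lower, *Piezo1* (-1.25), a mechanosensitive channel, and *Mef2c*. The list median was 0.14. Of 9 responders tested *Vcam1* (3.14), *Adamts1* (1.66) and *Plvap* (1.34) were higher and 0 lower, with a median of -0.30. Of 11 cofactors *Hdac2* (0.66), *Ctbp1* (0.46), which encodes the corepressor bound by *Klf3*, and *Sin3b* (0.28) were higher (median 0.11). *Klf1*, the erythroid member of the family, was lower (-3.03) among 4 other Klf genes (median 0.42), and *Sp2* (-0.64) among 5 Sp factors (median -0.21).

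The GFP effect itself differed between HC and EC for 4 members. As the effect in HC minus that in EC, it was -2.52 ± 0.49 on the log2 scale for *Klf4*, -1.65 ± 0.34 for *Klf2*, -1.61 ± 0.20 for *Klf3* and -0.64 ± 0.16 for *Klf13*, with edgeR adjusted p-values of 2.75e-05, 7.07e-05, 4.49e-10 and 0.000965 for the interaction. Of all genes 9.27% were called lower and 13.2% higher in this test. *Klf7* (0.83 ± 0.27, edgeR adjusted p = 0.0111) and *Klf6* (-0.65 ± 0.23, edgeR adjusted p = 0.0242) missed the threshold, and *Klf6* passed it without the 5 pools richest in markers of another cell type (-0.78, edgeR adjusted p = 0.00947), where 9.88% of genes were called lower. Scaled to the spike-ins, *Klf13* turned to 0.07 (edgeR adjusted p = 0.839), where all genes had a median of 0.75. Beside it, 10 of 17 immediate early genes also had a lower GFP effect in HC than in EC (median -1.29), as had 3 of 10 responders (median -0.83) and 3 of 11 cofactors (median -0.30), while 3 flow genes were lower and 2 higher of 14 (median -0.32).

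Between MC populations *Klf6* was the member called, and it was higher in GFP+ MC. It was at 82.5, 131 and 254 CPM in GFP+ MC and at 38.8, 92.5 and 153 in GFP- MC. The groups overlapped, with 5 of 20 GFP+ pools above all GFP- pools, and the log2 fold change was 0.63 ± 0.15 (edgeR adjusted p = 0.00454). Of 10 members 1 was higher against 2.21% of 16026 genes, and 0 lower against 2.15%. The median of the members was 0.43 and that of all genes -0.01. Without the pools against the label *Klf6* was at 0.76 ± 0.16 (edgeR adjusted p = 0.000731, 17 against 14 pools), with 5 of 17 GFP+ pools above all GFP- pools, beside 5.52% of genes called higher. Scaled to the spike-ins it was at 0.56 and missed the threshold (edgeR adjusted p = 0.0985).

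The other members in MC missed the threshold with and without those pools. Without them *Klf2* gave 1.19 ± 0.37 (edgeR adjusted p = 0.0209), *Klf11* 0.75 ± 0.21 (edgeR adjusted p = 0.0118), *Klf13* 0.50 ± 0.14 (edgeR adjusted p = 0.0123) and *Klf3* 0.47 ± 0.15 (edgeR adjusted p = 0.0211). *Klf9*, near its detection limit, gave 2.30 ± 0.75 (edgeR adjusted p = 0.0304). Of 13 flow and Mef2 genes, *Mef2c* (1.92, and 2.10 without the pools) and *Mef2a* (0.52) were higher (median 0.16). In the other lists, with all pools, 0 of 17 immediate early genes, 0 of 10 responders, 0 of 11 cofactors, 0 of 4 other Klf genes and 0 of 5 Sp factors were called, with medians of 0.29, 0.30, 0.06, -0.22 and 0.17. Without the pools *Mef2d* was higher as well, and of 9 responders *Rhob* was higher and *Vcam1* lower. Then 5 of 17 immediate early genes were also higher, led by *Hspa1a* (2.18), *Hspa1b* (1.79), *Zfp36* (1.03) and *Dusp1* (0.73). Their summed level was then 787 to 2101 CPM in GFP+ MC and 443 to 2011 in GFP- MC. The mesenchymal markers summed to 3596 to 5497 CPM against 2547 to 4079, 4 of 8 higher and 2 lower, and their part in the *Klf6* difference was not tested.

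Between SNS populations *Klf10* was higher and *Klf3* lower in GFP+ SNS. *Klf10* was at 1.58, 22.2 and 62.7 CPM in GFP+ SNS and at 1.65, 8.36 and 20.3 in GFP- SNS, with 10 of 18 GFP+ pools above all GFP- pools. Its log2 fold change was 1.42 ± 0.30 (edgeR adjusted p = 0.00150), and 1.57 ± 0.25 (edgeR adjusted p = 1.71e-05) without the pools against the label, where the levels were 12.9, 23.7 and 62.7 against 3.55, 8.29 and 20.3 CPM and 10 of 15 GFP+ pools lay above all GFP- pools. *Klf3* was at 20.5, 34.8 and 56.7 CPM in GFP+ SNS and at 32.1, 48.9 and 109 in GFP- SNS, overlapping, with 7 of 19 GFP- pools above all GFP+ pools. Its log2 fold change was -0.65 ± 0.16 (edgeR adjusted p = 0.00597), and -0.59 ± 0.13 (edgeR adjusted p = 0.00115) without those pools, where 9 of 16 GFP- pools lay above all GFP+ pools. Of 10 members 1 was higher against 2.01% of 16143 genes and 1 lower against 1.85%. The median of the members was -0.00597 and that of all genes -0.00387. Without the pools 9 were tested and 1 was called each way, against 4.94% and 5.48%, with medians of 0.06 for the members and -0.01 for all genes.

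*Klf6*, the member called in MC, gave -0.61 ± 0.18 in SNS and missed the threshold (edgeR adjusted p = 0.0306). The scanpy test called neither *Klf10* (1.32, adjusted p = 0.0154) nor *Klf3* (-0.64, adjusted p = 0.0110), and scaled to the spike-ins *Klf3* was at -0.28 (edgeR adjusted p = 0.242) beside a median of 0.35 over all genes. In the lists, *Mef2c* (-0.61) was lower among 14 flow genes (median 0.02), *Thbd* (2.04), the thrombomodulin gene, higher and *Adamts1* (-1.01) lower among 10 responders (median -0.86). Of 17 immediate early genes, 11 cofactors, 3 other Klf genes and 4 Sp factors 0 were called, with medians of -0.18, -0.05, -0.19 and -0.03. Without the pools against the label *Mef2c* was not called, *Thbd* (2.57) was higher and *Plvap* (-2.10), *Adamts1* (-1.25) and *Rhob* (-0.43) lower among the responders, the cofactors *Kat2b*, *Fbxw7* and *Hdac1* and the immediate early gene *Dusp1* (0.82) were higher, and 0 other Klf genes and 0 Sp factors were called. Without the pools against the label summed sympathetic markers were at 732 to 3054 CPM in GFP+ SNS and 431 to 915 in GFP- SNS (6 of 7 higher, *Ngfr* lower), Schwann precursor markers at 340 to 908 against 698 to 994 (1 of 4 lower) and mesenchymal markers at 101 to 336 against 369 to 900 (8 of 8 lower). These lists move with *Klf10* and *Klf3*, and their part was not tested.

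The GFP effect differed between SNS and MC for *Klf6* (-1.26 ± 0.24, edgeR adjusted p = 7.14e-05), *Klf3* (-1.18 ± 0.23, edgeR adjusted p = 8.28e-05) and *Klf10* (1.49 ± 0.42, edgeR adjusted p = 0.00771), as SNS minus MC. Of all genes 5.17% were called higher and 4.49% lower. Without the 12 pools *Klf6* (-1.35 ± 0.27) and *Klf3* (-1.06 ± 0.20) were called, beside 5.64% of genes called lower, and *Klf10* (1.26 ± 0.39, edgeR adjusted p = 0.0171) was not.

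Between the cell types of E10.5, HC had more *Klf6* and less of most other members than EC. Of 10 members 1 was higher, against 25.5% of 17851 genes, and 7 lower, against 24.8%, with a median of -0.96 against 0.02 for all genes. *Klf6* was at 1.14 ± 0.12 on the log2 scale (edgeR adjusted p = 4.46e-14), the mean of both HC populations against the mean of both EC populations. *Klf13* (-1.03 ± 0.08), *Klf7* (-1.005 ± 0.13), *Klf3* (-0.99 ± 0.10), *Klf2* (-0.94 ± 0.17) and *Klf4* (-1.43 ± 0.25) were lower, with edgeR adjusted p-values from 1.2e-19 to 1.7e-06. *Klf9* was called lower too (-2.41 ± 0.52, edgeR adjusted p = 4.58e-05), though it held at least 10 counts in only 48 of the 153 pools, and it was listed at 0 in 11 GFP+ HC and 13 GFP- HC pools against 8 GFP+ EC and 3 GFP- EC pools. *Klf10* was at -0.41 ± 0.13 (edgeR adjusted p = 0.00515), but at 0.05 when scaled to the spike-ins, which moved all genes by 0.42. It also missed the threshold without the 5 pools richest in markers of another cell type (-0.39, edgeR adjusted p = 0.0122), when 26.3% of genes were called higher and 24.8% lower. *Klf5* (0.22 ± 0.52) and *Klf11* (-0.19 ± 0.28) were not called (edgeR adjusted p = 0.731 and 0.579).

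The lists followed the cell types. In HC 9 of 14 flow and Mef2 genes were lower and *Mef2c* was higher (0.76), with a list median of -0.60, and 8 of 10 responders were lower (median -2.79), led by *Plvap* (-6.67), *Nos3* (-6.02), *Edn1* (-5.54) and *Adamts4* (-4.59). All 8 endothelial markers were lower too. Of 17 immediate early genes 10 were higher in HC (median 1.21), led by *Fos* (3.62) and *Egr2* (3.36), and *Ier2* was lower. *Klf1* was higher (3.63) and *Klf12* (-2.69) and *Klf14* (-2.17) lower among 5 other Klf genes. *Sp7* was higher (2.94) among 5 Sp factors, and of 11 cofactors 2 were higher and 5 lower (median -0.22).

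Between the cell types of E11.5, SNS had less *Klf11* and *Klf3* than MC, and *Klf5*, which held at least 10 counts in 42 of the 153 pools, was called lower as well. *Klf11* was at -0.64 ± 0.17 (edgeR adjusted p = 0.00154), *Klf3* at -0.38 ± 0.11 (edgeR adjusted p = 0.00606) and *Klf5* at -1.94 ± 0.58 (edgeR adjusted p = 0.00656). Of 10 members 3 were lower, against 12% of 17733 genes, and 0 higher, against 11.4%, with a median of -0.17 against 0.00126 for all genes. Without the 12 pools the same 3 were at -0.83 ± 0.17, -0.66 ± 0.10 and -3.69 ± 0.58, *Klf2* was lower as well (-1.58 ± 0.35, edgeR adjusted p = 0.000122) and *Klf13* higher (0.61 ± 0.09, edgeR adjusted p = 2.82e-08), beside 20.5% of genes called higher and 19.7% lower. Scaled to the spike-ins, with all pools, *Klf3* turned to 0.10 (edgeR adjusted p = 0.479) and *Klf11* lost its call, while all genes moved by 0.48. Of 17 immediate early genes 7 were lower in SNS, led by *Atf3* (-1.65) and *Fosb* (-1.58). Of the other lists, 2 of 10 responders, 2 of 14 flow genes, 3 of 11 cofactors, 1 of 5 Sp factors (*Sp7*) and 1 of 5 other Klf genes (*Klf12*) were lower, and 1, 1, 1, 0 and 1 of them were higher. Leaving out the 12 pools, 9 immediate early genes, 3 responders, 3 flow genes, 4 cofactors, 2 Sp factors and 1 other Klf gene were lower, and 0, 2, 1, 4, 0 and 1 higher.

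**Figure D5:**
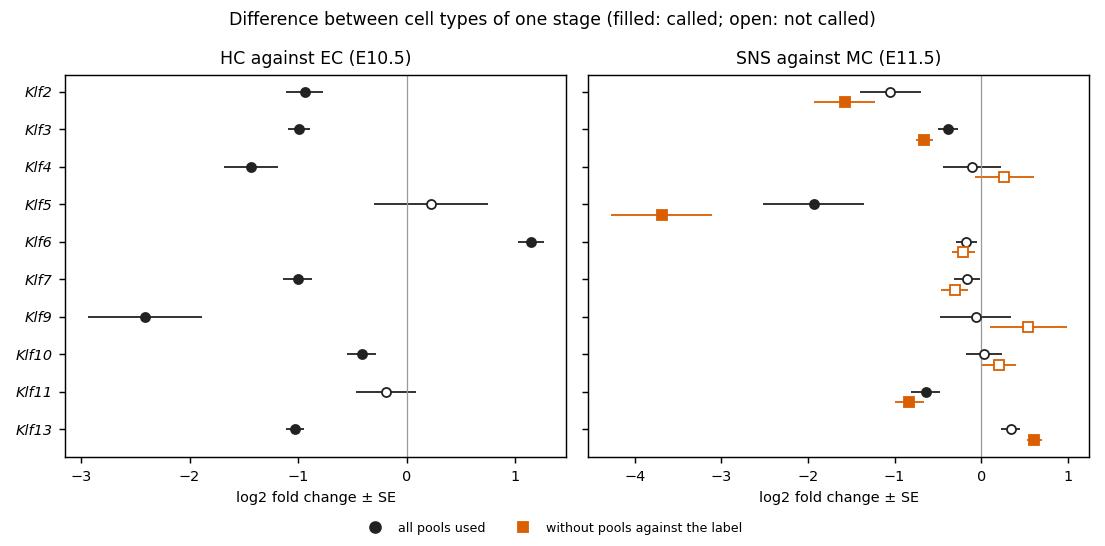
Log2 fold change ± SE of each member in HC against EC (left) and in SNS against MC (right), on axes of different range, with filled symbols for members past the threshold and squares for the fits without the 12 pools against their label. *Klf6* is the only member called higher in the left panel (1.14), and *Klf5* is farthest to the left in the right panel (-1.94, and -3.69 without the pools).

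The genes most like each member over all 153 pools, by Pearson's r of log2(CPM + 1) among 12212 genes with a mean of at least 5 CPM, differed between members. For *Klf2* they were *Gngt2* (r = 0.83), *S1pr1* (0.83) and *Rgs2* (0.83), and for *Klf3* *Calcrl* (0.78), *Itga5* (0.76) and *Adam10* (0.75). For *Klf13* they were *Plec* (0.76), *Sema3g* (0.72) and *Cemip2* (0.71), for *Klf6* *Clec5a* (0.69), *Snx2* (0.69) and *Clta* (0.69), and for *Klf7* *Exoc3l4* (0.70), *F11r* (0.66) and *Arhgef15* (0.66). *Klf10* was closest to *Gm49342* (0.65) and *Klf11* to *Cux1* (0.64), while *Klf4*, *Klf5* and *Klf9* reached at most 0.53. These correlations run across 8 populations and share their depth, so they describe which populations hold both genes, and no test was made.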

How the data were processed

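Smart-seq2 libraries of 160 pools of 20 cells, 20 from each of 8 populations, were analysed from 1 table of raw counts per Ensembl gene, which the authors deposited without normalisation. The study's methods name STAR with an Ensembl annotation and HTSeq, while the submitters' processing notes name GSNAP, HTSeq 0.5.3p3 and mm10; which aligner made the table is not given in the sources used here. Rows for reads on no feature, ambiguous or unaligned took 38.28% to 67.59% of reads and stayed out of library sizes and tests, as did the 92 ERCC spike-ins. Pools were kept with over 500000 reads, over 20% of reads on genes, under 20% mitochondrial and under 20% spike-in counts, the limits of the study, which left 153 with 1400824 to 16004756 counts on genes. Precision is limited by the number of pools and, since pools of a population share embryos, by the few biological replicates behind them, and reads carry no molecular identifiers, so counts include PCR copies. Groups were taken from the labels. Symbols and positions came from GENCODE M21 (45229 of 46078 identifiers matched) and promoter stretches from RefSeq.

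Genes reaching 10 counts in 5 or more pools of a comparison were tested in edgeR 4.0.16 (R 4.3.3) with TMM scaling and the robust quasi-likelihood F test; SE is the log2 fold change divided by the square root of F. Each cell type was fitted alone for GFP+ against GFP-, and both cell types of a stage together for cell type and interaction contrasts. Adjusted p-values are Benjamini-Hochberg over all genes tested. Levels are CPM over counts on genes, adjusted by TMM factors computed over all 8 populations. Permutation tests used 100000 resamples of log2(CPM + 1), two-sided, with scipy 1.17.1. Alternatives were DESeq2 1.42.0 size factors, the DESeq2 Wald test, ERCC scaling, other filters, all 160 pools, 1 fit of all 8 populations, an adjusted p under 0.05, and scanpy 1.11.5 on scran 1.30.0 values, which is the study's test. The edgeR test with TMM, the DESeq2 Wald test and the scanpy test were first run on counts simulated from GFP- EC pools. That simulation held a comparison of GFP+ with GFP- EC alone, so the other scalings, filters, contrasts and fits were not covered.

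The members and gene lists were chosen with earlier results of these data known. Genes named are the members, the sorting genes, at most the 4 largest changes in each list (others where the members of a small count are named, after their values were seen), and the 3 genes most like each member. The 2 exclusions of pools, the relations with marker lists and the pairs of members were added after seeing the data.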

Additional observations from a re-analysis of the deposited data

Results flagged for a closer look

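The difference between GFP+ and GFP- pools itself differed between the cell types of a stage for 7 combinations of member and stage, by the interaction term in edgeR's quasi-likelihood test. Of all genes tested, 13.2% were called higher and 9.27% lower in this test at E10.5, and 5.17% higher and 4.49% lower at E11.5. At E10.5, as the effect in HC minus that in EC on the log2 scale, the values were -2.52 for *Klf4*, -1.65 for *Klf2*, -1.61 for *Klf3* and -0.64 for *Klf13*. The effects behind them were 0.78 in EC and -1.69 in HC for *Klf4*, 0.85 and -0.76 for *Klf2*, 1.25 and -0.32 for *Klf3*, and 0.67 and 0.07 for *Klf13*. At E11.5, as the effect in SNS minus that in MC, the values were -1.26 for *Klf6*, -1.18 for *Klf3* and 1.49 for *Klf10*. The effects were 0.63 in MC and -0.61 in SNS for *Klf6*, 0.52 and -0.65 for *Klf3*, and -0.08 and 1.42 for *Klf10*. Without the 12 pools whose sorting genes go against the label, the values at E11.5 were -1.35, -1.06 and 1.26, and that of *Klf10* was no longer past the threshold.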

How the results depend on the processing

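Of 692 values of single members under alternatives, 642 kept their side of the threshold, 31 passed it only under the alternative and 15 lost it. The other 4 were past the threshold in the main fit and turned in direction. Changes of direction of members not called in the main fit are not counted among them. All 4 turned when scaled to the ERCC spike-ins: *Klf13* in EC (-0.0146) and in the E10.5 interaction (0.0731), *Klf10* in HC against EC (0.0544) and *Klf3* in SNS against MC (0.104). That scaling moved the median of all genes by -0.70 in EC, 0.35 in SNS, 0.42 in HC against EC, 0.48 in SNS against MC and 0.67 and 0.38 in the interactions at E10.5 and E11.5, and the share of higher calls from 54.06% to 14.33% in EC, 50.72% to 72.44% in MC, 52.08% to 83.32% in SNS, 50.73% to 74.69% in HC against EC, 48.53% to 89.21% in SNS against MC, and 58.76% to 90.99% and 53.53% to 76.26% in those interactions. It called 0 members and 381 genes in MC (main 1 and 698) and 1 member and 1013 genes in SNS (2 and 624). In SNS against MC it called 8545 genes (4148), and in the E11.5 interaction 1 member and 1866 genes (3 and 1713). Without the 12 pools against their label, 1586 genes were called in MC, 1631 in SNS and 6963 in SNS against MC. In SNS against MC 5 members were then called in place of 3, as also with all 160 pools, where 4112 genes were called. Without the 12 pools 10 neighbouring pairs of populations differed in place of 4, among them an HC pair of *Klf2* with the same pools in both runs. One fit of all 8 populations called 1130 genes in MC, and the scanpy test 0 members and 477 genes in SNS. In EC that test took the share of higher calls to 44.63%, and in HC to 53.86% from 64.15%. At an adjusted p under 0.05, 7 of 10 members were called in EC beside 7042 of 15073 genes, and 5 of 9 in HC beside 6027 of 16200. In MC 3 of 10 members were called beside 1514 of 16026 genes, and in SNS against MC 5 of 10 beside 6019 of 17733. At this limit 1331 genes were called in SNS and 2961 in the E11.5 interaction. With a pseudocount of 0.1, 0 relations with marker lists held in GFP+ HC. The cause of these changes was not tested. Of 148 counts under alternatives 126 stayed within 1.5 times the main count. A limit of over 8000 detected genes removed no further pool and was not fitted. With 17 to 20 pools a group, single pools were not left out in turn. No paired analysis was possible because the columns of the table carry no replicate number. *Klf5* and *Klf9*, with under 10 counts in most pools, were called on few counts, which limits every statement on them.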
